A study of Arabidopsis thaliana with 16 samples.

Results

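COR15A (AT2G42540) and LTI30 (AT3G50970) are genes of Arabidopsis thaliana whose transcripts accumulate in cold and drying plants. Both were chosen by locus, and each was measured by 1 probe set. The 2 probe sets are 2 of 13701 that reached a log2 value of 4 on at least 3 of the 16 arrays, and of 22810 in the deposited table. COR15A encodes a small late embryogenesis abundant (LEA) protein of the chloroplast stroma, known for protecting chloroplast membranes when leaves freeze. LTI30, also called XERO2, encodes a dehydrin, a family of unstructured and very hydrophilic proteins that bind membranes when cells lose water. Genes of this group are known to be switched on in cold by CBF transcription factors, and many also respond to the drought hormone abscisic acid.

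The study asked what changes in seedlings when the kinase TOR, a central regulator of growth by nutrients, is silenced. Each of 3 Col-0 lines (amiR-tor 9, 17 and 20) carried an artificial microRNA against TOR behind a promoter that estradiol switches on, and control seedlings carried the empty inducible vector pER8. At an age of 2 weeks the seedlings went onto medium with 20 µM estradiol or without it, for 3 or 6 days until harvest. This gave 4 amiR-tor groups (induced and non-induced at each day) of 3 arrays, 1 per line, and 4 empty-vector arrays, 1 per condition. All seedlings had been germinated on hygromycin in continuous light. The lines served as replicates. Whether arrays of a line stem from separate cultures is not labelled. The comparisons of groups shared 1 estimate of spread, pooled over the amiR-tor groups of both days. It counted all arrays of a line as independent, across days and between induced and non-induced. The p-values within a day thus do not measure the spread between lines on that day alone. Comparisons over both days or between days also counted the 3 and 6 day arrays of a line as separate replicates. The labels are not uniform: the series title names another gene and the sample descriptions all mention the empty vector, so the groups rest on the sample titles. TOR itself was not analysed here, so the degree of silencing in each line was not checked.

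Arrays of 2 kinds were mixed among the groups. The control probe set for 25S ribosomal RNA was dim on 6 arrays (log2 values of 5.27 to 6.66) and bright on 10 (11.38 to 11.99). On the dim 6 the 5′ minus 3′ difference of the actin controls was -10.39 to -4.47, against -1.92 to -1.43 on the 10. The induced line 9 arrays of both days and the 3 day arrays of lines 17 and 20 made up the 6. Induction and the kind of array cannot be told apart in line 9, while the arrays of each pair of lines 17 and 20 and of the empty vector were of 1 kind. The labelled tissue was checked with 3 named probe sets of green tissue (RCA, LHCB4.1 and LHCB4.2), which read 13.18 to 14.68 on all arrays. Of the named root markers, PYK10 read 13.08 to 13.7, AT5G17820 8.22 to 9.82 and AT4G11290 6.56 to 8.84. None of the 9 seed storage loci on the list of markers was on a named probe set.

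COR15A read higher with estradiol in 5 of the 6 amiR-tor pairs, by up to 3.09 log2 units, and slightly lower in both empty-vector pairs. At 3 days without inducer its log2 value was 5.76 in line 9, 5.08 in line 17 and 6.89 in line 20. With estradiol at 3 days it was 6.75 in line 9, 7.98 in line 17 and 6.57 in line 20. The groups overlapped through line 20, whose non-induced array was higher than its induced one.

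At 6 days without inducer COR15A read 4.27 in line 9, 4.57 in line 17 and 6.21 in line 20. With estradiol at 6 days it read 7.36 in line 9, 6.96 in line 17 and 6.90 in line 20. All 3 induced arrays thus lay above all 3 non-induced ones, as they did for 11% of all probe sets tested. The non-induced values of lines 9 and 17 were close to the log2 value of 4 that marked dim probe sets. The empty vector read 6.19 without and 5.95 with estradiol at 3 days, and 5.83 and 5.64 at 6 days.

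LTI30 was a bright probe set with a narrow range, and it read higher with estradiol in all 6 amiR-tor pairs and in both empty-vector pairs. At 3 days without inducer LTI30 read 10.13 in line 9, 9.96 in line 17 and 9.81 in line 20. With estradiol at 3 days it read 10.45 in line 9, 10.33 in line 17 and 10.04 in line 20, and the groups overlapped. At 6 days the non-induced values were 9.81 in line 9, 10.03 in line 17 and 9.97 in line 20. The induced values at 6 days were 11.24 in line 9, 10.91 in line 17 and 10.06 in line 20, all above the non-induced ones, as for 11% of probe sets. The margin in line 20 was small, since its induced array exceeded the highest non-induced array by 0.03. The empty vector read 9.59 without and 9.94 with estradiol at 3 days, and 10.24 and 10.56 at 6 days.

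**Figure D1:**
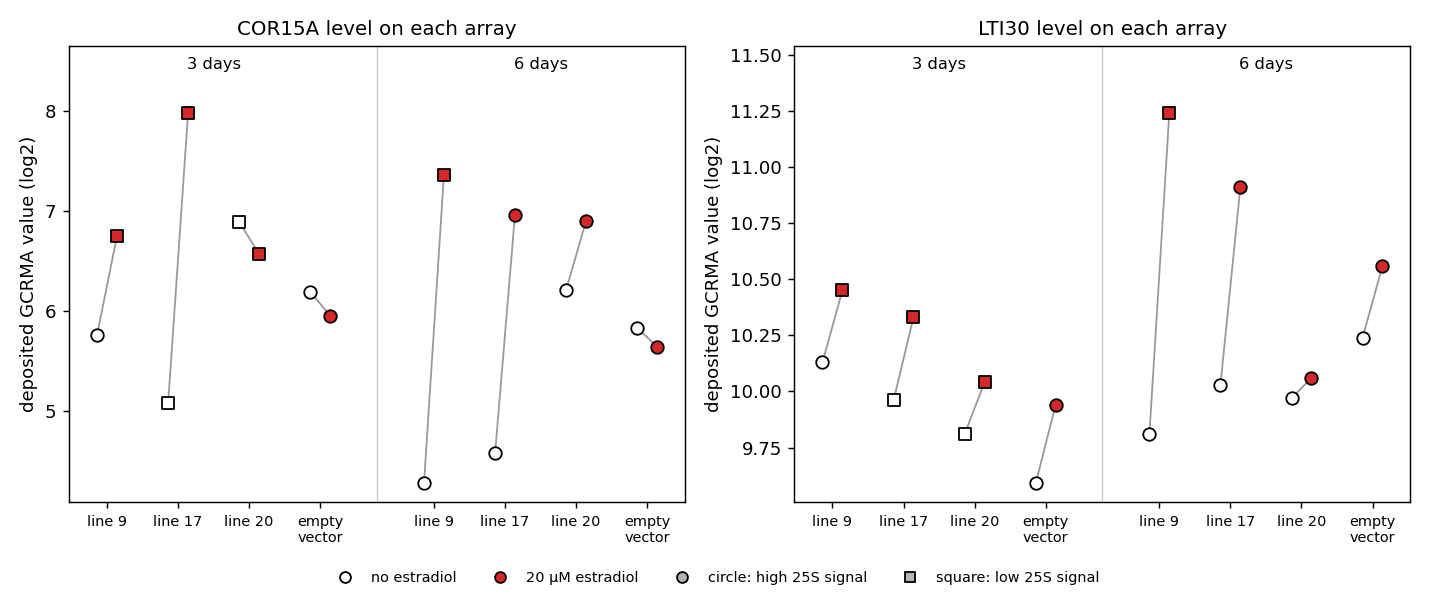
Deposited log2 values of COR15A (left) and LTI30 (right) on each of the 16 arrays, by line or empty vector and by day. White symbols are seedlings without estradiol and red symbols those on 20 µM estradiol, a grey line joins the arrays of a pair, and squares mark the 6 arrays with low 25S signal. The gap of COR15A is wide in line 17 at both days and in line 9 at 6 days, and LTI30 is higher with estradiol in all 8 pairs, most at 6 days in lines 9 and 17.

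The COR15A difference varied between lines and, in line 9, between days. In line 17 the induced array exceeded the non-induced one by 2.90 log2 units at 3 days (7.46-fold) and by 2.39 at 6 days (5.24-fold). In line 9 the differences were 0.99 at 3 days and 3.09 at 6 days, the latter 8.52-fold. In line 20 they were -0.32 and 0.69. Higher in both pairs of lines 9 and 17 and lower in both pairs of the empty vector was a pattern shown by 2.71% of probe sets. The pattern was read from COR15A itself and leaves out line 20, so that share does not measure how unusual the gene is. Among the differences of all 13701 probe sets in the same pair, COR15A ranked 22nd from the top in line 17 at 3 days and 68th at 6 days. It ranked 1491st in line 9 at 3 days and 50th at 6 days. In line 20 it ranked 12177th at 3 days and 448th at 6 days.

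In line 17 both differences exceeded 1 log2 unit, which held for 1.23% of probe sets, again a pattern read from COR15A itself. At 6 days both arrays of line 17 were of the kind with high 25S signal, and actin 5′ minus 3′ was -1.82 without and -1.84 with estradiol. At 3 days that measure moved from -4.47 to -8.58 in line 17, while in line 20 it was -4.65 and -4.52. In line 9 it moved from -1.86 to -10.39 at 3 days and from -1.43 to -6.23 at 6 days.

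For LTI30 the 3 day differences were 0.32 in line 9, 0.37 in line 17 and 0.23 in line 20, and that of the empty vector, 0.35, lay among them. At 6 days they were 1.43 in line 9 (2.69-fold), 0.88 in line 17 (1.84-fold) and 0.09 in line 20, with 0.32 in the empty vector. The difference in line 20 was thus smaller than in the empty vector at both days. A higher induced array in all 6 amiR-tor pairs was found for 11.6% of probe sets, and in all 8 pairs for 4.82%.

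**Figure D2:**
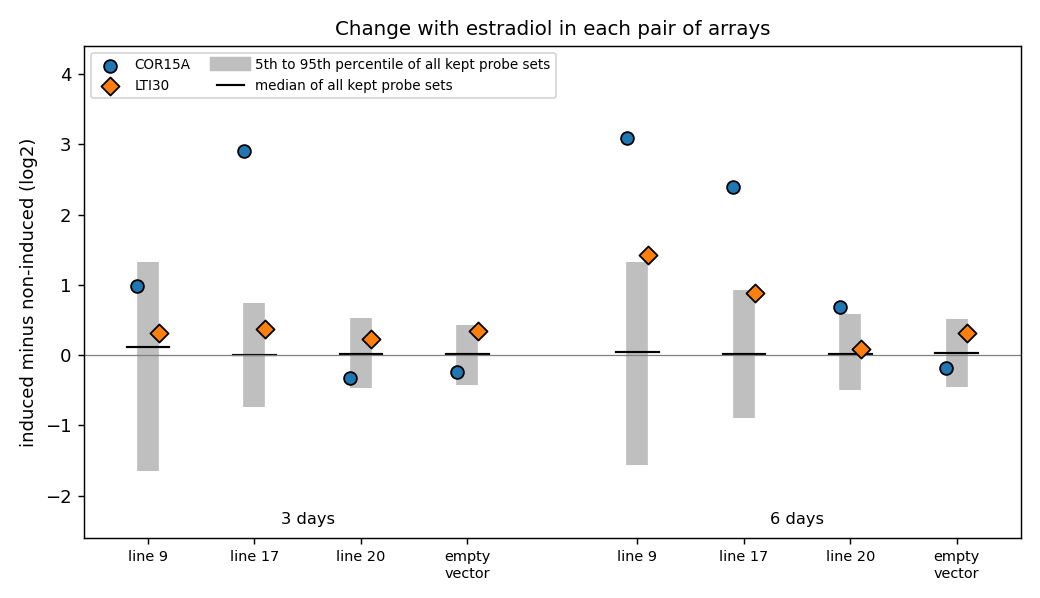
Induced minus non-induced log2 value of COR15A (circles) and LTI30 (diamonds) in each pair of arrays, by line or empty vector and by day. Grey bars span the 5th to 95th percentile of the same difference over 13701 probe sets and black marks show its median. COR15A stands above the bars in line 17 at both days and in lines 9 and 20 at 6 days, and below 0 in the empty vector. The bars are widest in line 9, where the kind of array differed within the pair.

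Over the lines, neither gene passed the test in any comparison (limma on all kept probe sets, where a call needs a Benjamini-Hochberg adjusted p below 0.05). At 6 days COR15A went from 5.02 ± 1.04 (SD, n = 3) to 7.07 ± 0.25 (SD, n = 3), a difference of 2.06 ± 0.57 (SE; limma adjusted p = 0.153). The difference of LTI30 at 6 days, from 9.94 ± 0.11 to 10.74 ± 0.61 (SD, n = 3 each), was 0.80 ± 0.26 (SE; limma adjusted p = 0.212). In that comparison 0.46% of probe sets were called. At 3 days COR15A differed by 1.19 ± 0.57 (SE; limma adjusted p = 0.397) and LTI30 by 0.31 ± 0.26 (SE; limma adjusted p = 0.583). With the actin 5′ minus 3′ difference as a covariate the 3 day values were 0.79 for COR15A and -0.055 for LTI30. The 3 day value of COR15A was 0.34 without line 17 and 1.95 without line 20, and the 6 day value of LTI30 was 0.49 without line 9. The share called at 3 days was 0%, with 13% at an unadjusted p under 0.05 in limma.

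Over both days together the difference of COR15A was 1.62 ± 0.41 (SE; limma adjusted p = 0.0573), outside the threshold, with an unadjusted 95% interval of 0.73 to 2.52. That of LTI30 was 0.55 ± 0.18 (SE; limma adjusted p = 0.108), with an interval of 0.15 to 0.96. With the actin covariate they were 1.34 ± 0.53 and 0.30 ± 0.21 (SE). In that comparison 2.85% of probe sets were called, and the median difference over all of them was 0.03. By size COR15A ranked 59th and LTI30 1054th from the top of 13701. With the days of each line averaged, so that each line counted once, the limma adjusted p was 0.242 for COR15A and 0.285 for LTI30. Without line 20 the difference of COR15A was 2.34 ± 0.31 (SE; limma adjusted p = 0.0266), which is past the threshold, and that of LTI30 was 0.75 ± 0.15 (SE; limma adjusted p = 0.0504). Line 20 had the smallest difference of the lines for both genes, so leaving it out raises these values. Without line 9, whose pairs mixed the kinds of array, COR15A differed by 1.42 ± 0.56 and LTI30 by 0.39 ± 0.20 (SE), and without line 17 COR15A differed by 1.11 ± 0.47. COR15A did not pass without line 9 or without line 17.

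**Figure D3:**
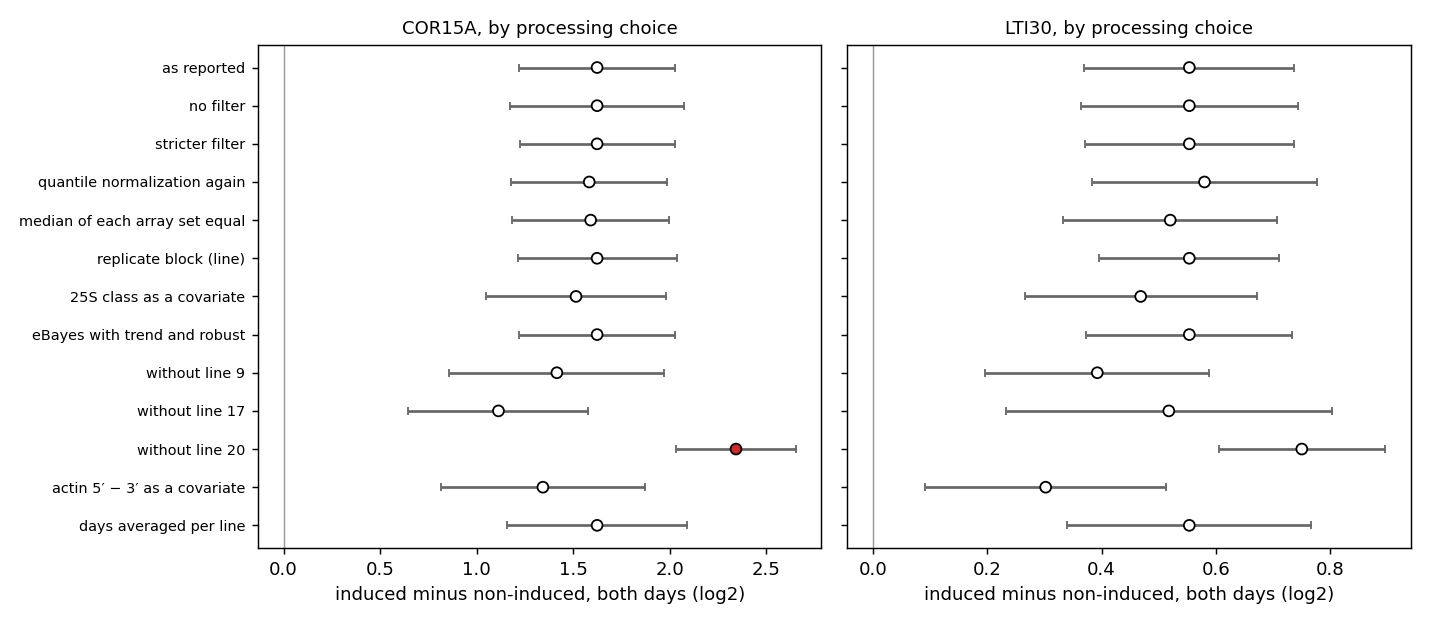
Induced minus non-induced log2 difference over both days for COR15A (left) and LTI30 (right) under each way of processing the data, with bars of 1 SE. A red point is past the limma adjusted p of 0.05 and white points are not. COR15A keeps a positive difference throughout, lowest without line 17 and highest without line 20, the setting that is past the threshold.

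A test of whether the lines differed in their response used the 12 amiR-tor arrays, each line's days serving as its repeats. Averaged over the days, COR15A differed by 2.04 in line 9, 2.65 in line 17 and 0.19 in line 20, each ± 0.47 (SE). The test of a difference between lines gave a limma F adjusted p = 0.151 for COR15A and 0.485 for LTI30, whose values were 0.88, 0.63 and 0.16, each ± 0.26 (SE). No probe set passed that test in limma, so the share called was 0%, and 19.9% had an unadjusted p under 0.05. The difference between lines in COR15A was therefore not shown to exceed the spread between days.

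The effect of induction was not shown to differ between days either. Induction at 6 days minus induction at 3 days was 0.87 ± 0.81 (SE) for COR15A and 0.49 ± 0.37 (SE) for LTI30, both with limma adjusted p = 1. The share of probe sets called was 0%, with 1.71% at an unadjusted p under 0.05 in limma. The unadjusted 95% interval of the COR15A value, -0.92 to 2.66, leaves room for a sizeable difference either way.

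COR15A read lower at 6 than at 3 days in all seedlings without inducer, a difference that was not tested. From 3 to 6 days its non-induced value differed by -1.49 in line 9, -0.51 in line 17, -0.68 in line 20 and -0.36 in the empty vector. A lower value at 6 days in all 4 was found for 12.2% of probe sets. With estradiol the same step was 0.61 in line 9, -1.02 in line 17, 0.33 in line 20 and -0.31 in the empty vector. The wider 6 day gap of COR15A in lines 9 and 20 thus came from both a lower non-induced and a higher induced value. In line 17 the induced value was the lower at 6 days. For LTI30 the non-induced step was -0.32 in line 9, 0.07 in line 17, 0.16 in line 20 and 0.65 in the empty vector, where the array with estradiol also gained 0.62. The kind of array also changed between days in lines 17 and 20, and its part in these steps was not tested.

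Ordered by group mean, the COR15A levels began with the non-induced amiR-tor seedlings at 6 days (5.02) and passed through the empty vector with (5.64) and without estradiol (5.83) at 6 days. The non-induced amiR-tor group at 3 days (5.91 ± 0.91, SD, n = 3) and the empty vector with (5.95) and without estradiol (6.19) at 3 days followed. The induced amiR-tor groups at 6 days (7.07) and 3 days (7.10 ± 0.77, SD, n = 3) were the highest, and their ranges overlapped. All 4 empty-vector values, 5.64 to 6.19, lay inside the range of the non-induced amiR-tor arrays, 4.27 to 6.89, and under the lowest induced amiR-tor array, 6.57.

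For LTI30 the order began with the empty vector without estradiol at 3 days (9.59). The non-induced amiR-tor group at 6 days (9.94), the empty vector with estradiol at 3 days (9.94) and the non-induced amiR-tor group at 3 days (9.97 ± 0.16, SD, n = 3) lay together. Above them were the empty vector without estradiol at 6 days (10.24) and the induced amiR-tor group at 3 days (10.27 ± 0.21, SD, n = 3), which did not differ beyond the spread of the lines. The empty vector with estradiol at 6 days (10.56) lay inside the range of the induced amiR-tor group at 6 days (10.74), which was 10.06 to 11.24.

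The empty vector controlled for the inducer. There the COR15A difference was -0.24 at 3 days and -0.19 at 6 days, and the LTI30 difference was 0.35 and 0.32. Each condition had 1 array, so these values have no replicate check of their own. With the spread taken from the amiR-tor arrays, the difference over both days was -0.22 ± 0.70 (SE) for COR15A and 0.34 ± 0.32 (SE) for LTI30, both with limma adjusted p = 1. The share called was 0%, with 0.81% at an unadjusted p under 0.05 in limma.

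Induction in the lines minus estradiol in the empty vector was 1.84 ± 0.81 (SE; limma adjusted p = 0.963) for COR15A, with an unadjusted 95% interval of 0.05 to 3.63. For LTI30 it was 0.22 ± 0.37 (SE; limma adjusted p = 0.967), with an interval of -0.59 to 1.03. Neither gene passed, and 0.0073% of probe sets did. The LTI30 difference over both days was 0.55 in the lines and 0.34 in the empty vector, which had 1 array per condition.

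Among seedlings without estradiol, neither gene was shown to differ between the lines and the empty vector. COR15A in the lines minus the empty vector over both days was -0.55 ± 0.57 (SE) and LTI30 was 0.04 ± 0.26 (SE), both with limma adjusted p = 1. The share called was 0%, with 4.85% at an unadjusted p under 0.05 in limma. The non-induced level of COR15A was lowest in lines 9 and 17, where its difference with estradiol was greatest, and highest in line 20 at both days. The same non-induced array enters both the level and the difference. In bulk seedlings, more RNA per cell and more cells that express a gene cannot be told apart.

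Other genes of cold and drought responses were read from lists of 118 loci, which include the 2 genes themselves. A named probe set was found for 16 of them, and 8 passed the filter on dim values. None of the 8 passed in either direction at 3 days, at 6 days or over both days, where 0%, 0.46% and 2.85% of all probe sets were called. Of the loci for abscisic acid synthesis and signalling and of the dehydration-responsive loci, none was on a named probe set, so that arm of the response was not analysed here. CBF genes were likewise not among the named probe sets.

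Of 10 dehydrin loci, 6 had a named probe set, and LTI30, COR47 and AT1G54410 passed the filter, 3 in all. COR47, an acidic dehydrin, read 10.59 to 11.36 over all arrays, and its 6 amiR-tor differences lay between -0.11 and 0.14. AT1G54410, known as HIRD11, a small histidine-rich dehydrin, read 13.09 to 13.69, with amiR-tor differences between -0.43 and 0.20. Over both days the differences were 0.03 ± 0.18 for COR47 and -0.14 ± 0.10 for AT1G54410 (SE), with limma adjusted p = 0.919 and 0.413. The median of those 3 dehydrins over both days was 0.03, the same to 2 decimals as that of all probe sets. The other named dehydrins were LEA (AT2G21490) and AT4G39130, within 0.1 of the floor of 2.12 on all arrays, and AT4G38410, at 3.26 to 3.82.

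COR15B, the close relative of COR15A and its neighbour in the RefSeq gene table (TAIR10.1), showed another pattern. It read 3.67 to 5.26 over all arrays, at or near the log2 value of 4 that marked dim probe sets. Its amiR-tor differences lay between -1.23 and 0.33, and over both days its difference was -0.21 ± 0.21 (SE; limma adjusted p = 0.529). Line 20 at 3 days held the highest non-induced value of both relatives, 5.26 for COR15B and 6.89 for COR15A. Probe sequences were not used here, so cross-hybridisation between the 2 transcripts was not assessed.

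Among the other kept LEA genes, LEA4-5 (AT5G06760), a group 4 LEA protein of drying tissues, stood out in line 17. There it read 3.89 without and 7.02 with estradiol at 3 days, and 3.90 and 7.25 at 6 days. In line 9 it went from 3.90 to 4.84 and from 3.38 to 3.94. In line 20 it was 3.91 in both 3 day arrays, and 4.21 and 3.91 at 6 days. In the empty vector it was 3.83 to 3.91. Only 4.84, 7.02 and 7.25 with estradiol and 4.21 without it exceeded the log2 value of 4 that marked dim probe sets. LEA4-5 thus passed the filter only through induced arrays, and its tests and its likeness to COR15A rest on them. Over both days its difference was 1.28 ± 0.63 (SE; limma adjusted p = 0.221), and 0.30 without line 17. The test of a difference between lines gave a limma F adjusted p = 0.0941 for LEA4-5.

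M17 (AT2G41260), annotated as another LEA gene, did not pass in these comparisons. It was lower in the induced array of all 6 amiR-tor pairs, as were 7.15% of probe sets. At 6 days it read 7.53, 7.88 and 6.87 without estradiol and 2.20, 4.31 and 4.91 with it in lines 9, 17 and 20. The difference of -3.62 ± 0.90 (SE; limma adjusted p = 0.119) was the lowest of all 13701 probe sets at 6 days, without passing the test. The line 9 value with estradiol was close to the floor of 2.12. The empty vector read 7.10 and 7.15 at 6 days. Over both days the M17 difference was -2.38 ± 0.64 (SE; limma adjusted p = 0.0669), and without line 20 it was -2.92 (limma adjusted p = 0.0358), past the threshold. Averaged over the days, M17 differed by -3.08 in line 9, -2.765 in line 17 and -1.3 in line 20. Line 20 had the smallest fall, so leaving it out enlarges the difference. At 3 days M17 differed by -1.14 ± 0.90 (SE) in the lines and by -1.07 in the empty vector. The median of the 4 kept genes on the LEA list, COR15A, COR15B, LEA4-5 and M17, was 0.54 over both days, and their values ran from -2.38 to 1.62.

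The kept regulator was STZ (AT1G27730), also called ZAT10, a zinc finger repressor induced by cold and salt. Its difference over both days was -1.01 ± 0.38 (SE; limma adjusted p = 0.137) in the lines and -0.63 ± 0.66 (SE) in the empty vector. With the actin 5′ minus 3′ difference as a covariate it was -0.15 ± 0.29 (SE) in the lines.

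A named probe set existed for 2 further cold-regulated loci, and both were dim. COR27 (AT5G42900), a cold- and clock-regulated gene, was at the floor of 2.12 on 13 arrays. The other 3 were the induced 6 day arrays, with 3.28 in line 9, 2.95 in line 17 and 2.30 in line 20, all under the log2 value of 4. AT4G33980, known as COR28, was within 0.1 of the floor on all arrays but 1, the non-induced 6 day array of line 9 at 2.68. On the LEA list, LEA18, AT3G15670 and M10 were within 0.1 of the floor on all arrays.

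**Figure D4:**
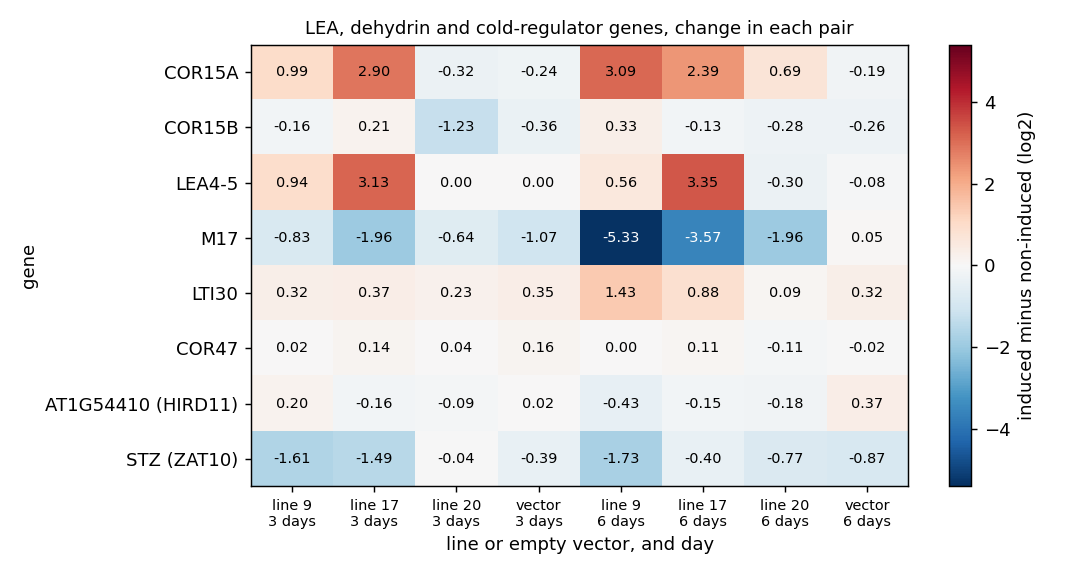
Induced minus non-induced log2 difference in each pair of arrays (columns, by line or empty vector and day) for the 8 kept genes of the cold and drought lists (rows), with the value in each cell. Red is higher and blue lower with estradiol. COR15A and LEA4-5 share high values in line 17, M17 is lowest at 6 days in all 3 lines, COR47 lies between -0.11 and 0.16, and AT1G54410 between -0.43 and 0.37.

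The likeness of the 2 genes depended on the measure. Over the 16 arrays their log2 values correlated with Pearson r = 0.45 (Spearman rho 0.44), and over the 10 arrays with high 25S signal with r = 0.37. Their induced minus non-induced differences over the 6 amiR-tor pairs correlated more closely, with r = 0.72, over points that share 3 lines. Among 1065 other genes with a symbol, LTI30 ranked 227th by likeness to COR15A, and LEA4-5 ranked 95th with r = 0.59. COR47 had r = 0.06 with COR15A and 0.18 with LTI30. M17, with r = -0.77, was the third from the bottom for COR15A. All these values share the 16 arrays, their lines and their kinds, and they are given as a description.

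The genes most like COR15A over the 16 arrays were CYP71B28 (r = 0.84), a cytochrome P450, SWEET10 (0.83), a sugar transporter, GSTU16 (0.83), a glutathione transferase, EXLB1 (0.82), an expansin-like protein, and SAG29 (0.81), a SWEET transporter of senescing leaves. By Spearman rho, SWEET10 (0.90) and SAG29 (0.90) were the closest of the 1065 genes. Within the 10 arrays with high 25S signal the 5 values were 0.66 to 0.73, and the genes ranked 26th to 59th of 1065 there. SAG29 and SWEET10 rose over both days, by 3.15 ± 0.62 and 1.71 ± 0.36 (SE; limma adjusted p = 0.028 and 0.0361). Both calls were lost without line 9 (limma adjusted p = 0.19 for SAG29 and 0.209 for SWEET10), without line 17 (0.465 for both) and with the 25S class of the array as a covariate (0.0993 for SAG29 and 0.128 for SWEET10). The SAG29 difference was 5.24 in line 17, 1.85 in line 9 and 0.98 in line 20 at 3 days, and 5.13, 4.08 and 1.59 at 6 days. COR15A shared that order of lines at 3 days, and at 6 days line 9 exceeded line 17. In the empty vector SAG29 differed by 1.04 and 0.93, whereas COR15A was lower with estradiol. SWEET10 differed at 3 and 6 days by 1.67 and 2.25 in line 9 and by 2.24 and 3.06 in line 17. Its differences were 0.93 and 0.09 in line 20, and 0.39 and 0.29 in the empty vector. Induction in the lines minus estradiol in the empty vector was 2.16 for SAG29 and 1.37 for SWEET10 over both days.

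The genes most like LTI30 were APG8A (r = 0.88) and ATG8B (0.80), both ubiquitin-like proteins of autophagosomes, BGLU46 (0.85), a beta-glucosidase, SGP1 (0.83), annotated as a small GTP-binding protein, and UGT73B4 (0.81), a glycosyltransferase. APG8A also had the highest Spearman rho with LTI30 (0.87) of the 1065 genes, and r = 0.80 within the 10 arrays with high 25S signal, where it ranked 6th. For the other 4 genes rho was 0.62 to 0.71. APG8A rose over both days, by 0.73 ± 0.15 (SE; limma adjusted p = 0.0331). The APG8A call was lost without any 1 line (limma adjusted p = 0.192 without line 9, 0.465 without line 17 and 0.0506 without line 20), as it was once the 25S class entered the model (0.113). Its differences were 0.93 and 1.30 in line 9, 0.39 and 0.71 in line 17, and 0.34 and 0.69 in line 20 at 3 and 6 days. The empty vector gave 0.25 and 0. Like LTI30, it was highest in line 9 at 6 days, but in line 20 at 6 days it was not as low as LTI30.

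**Figure D5:**
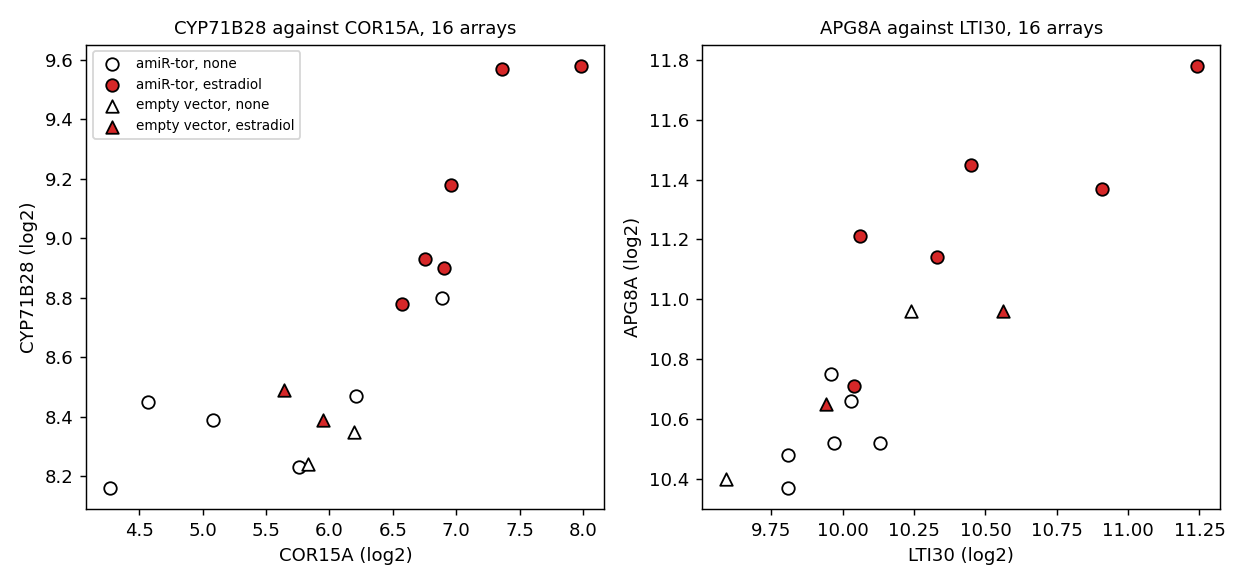
Log2 values on the 16 arrays of the gene ranked most like each of the 2 genes, CYP71B28 against COR15A (left) and APG8A against LTI30 (right). Circles are amiR-tor and triangles empty-vector arrays, red with estradiol and white without. Most induced amiR-tor arrays lie toward the upper right, with those of line 20 as exceptions. The induced 3 day array of line 20 lies beside non-induced arrays in both panels. Its induced 6 day array does so in the left panel. In the right panel that array has an LTI30 value within the non-induced range and a higher APG8A value. The empty-vector arrays lie among the non-induced ones in the left panel, with the 6 day ones further up in the right panel.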

How the data were processed

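Total RNA of seedlings was hybridised to 16 single-colour arrays. Per the submitters' processing notes, the authors deposited log2 values from GCRMA, of unstated version and settings. They ran from a floor of 2.12 to 15.32, with array medians of 5.60 to 5.68. The number of arrays limits the precision. The filter removed 64 control probe sets and 9045 that did not reach log2 4 on 3 arrays. Of the 22810 probe sets, 13513 were listed with 1 gene, 503 with several and 8730 with none here, and those with 1 gene were named through the RefSeq table of TAIR10.1. No coordinates or sequences are given.

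A limma model (version 3.58.1, R 4.3.3; lmFit and eBayes) with 8 group means was fitted to all 16 arrays, with Benjamini-Hochberg adjustment over 13701 probe sets. The lone empty-vector arrays borrow the spread of the amiR-tor arrays. The test of lines used the 12 amiR-tor arrays. In a test on simulated data for induction over both days (13701 probe sets), 97 of 100 changes of 1.5 and 100 of 100 of 3 log2 units were recovered. Its simulated arrays had independent noise and the same change in every line, without repeats of a line or kinds of array. It thus does not give the power of the real data. The members and gene lists were chosen with earlier results of these data known. Named were both members, all kept dehydrin, LEA and cold-regulated genes, of the other lists those past the threshold or up to 4 with the largest difference, and for each member the 5 genes with a symbol most like it by Pearson r. Dim genes and list genes outside that rule were named after their values were seen.

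Lines pair the arrays by label. The correlation of a line's arrays, as deviations from group means, lay between -0.63 and 0.45 in line 9, -0.16 and 0.17 in line 17 and -0.15 and 0.52 in line 20. The highest correlation between 2 arrays was 0.992, with at most 4.48% identical values in any 2. Alternatives were no filter, a filter at log2 6, repeated quantile normalization, equal medians, the line as a block, the 25S class (under log2 9) as a covariate, high 25S arrays alone, eBayes with trend and robust, each line left out, days averaged, and, added after seeing the data, the actin 5′ minus 3′ difference as a covariate.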

Additional observations from a re-analysis of the deposited data

Results flagged for a closer look

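COR15A was higher with estradiol in both pairs of line 9 and in both pairs of line 17, and lower in both pairs of the empty vector. Line 20 did not share the pattern, with -0.32 at 3 days and 0.69 at 6 days. The mean difference of the line exceeded that of the empty vector by 2.26 log2 units in line 9 and by 2.86 in line 17. These contrasts between a line and the empty vector were not tested, and the kind of array changed within the pairs of line 9. The same pattern of signs, in lines 9 and 17 together against the empty vector, was found for 2.71% of probe sets, a share of a pattern read from COR15A itself.

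The dehydrin gene AT1G54410 was lower with estradiol in both pairs of lines 17 and 20 and higher in both pairs of the empty vector. The differences at 3 and 6 days were small, -0.16 and -0.15 in line 17 and -0.09 and -0.18 in line 20. Line 9 did not share the pattern, at 0.20 and -0.43. The share of all probe sets with these signs was not counted. The mean difference of the line minus that of the empty vector was -0.35 in line 17 and -0.33 in line 20, neither of them tested. The empty-vector differences were 0.02 and 0.37, so the first was close to 0.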

How the results depend on the processing

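COR15A kept a positive difference with induction at 3 days, at 6 days and over both days under every alternative run, from 0.34 (3 days, without line 17) to 2.74 (6 days, without line 20). It passed in limma over both days in 1 of them, without line 20 (adjusted p = 0.0266), and leaving out 1 line gave 1.11 to 2.34. With the line as a replicate block the both-day differences were unchanged at 1.62 ± 0.41 for COR15A (limma adjusted p = 0.0597) and 0.55 ± 0.16 for LTI30 (0.0752), and the block changed no call of the 2 genes. Averaging the days per line gave limma adjusted p = 0.242 and 0.285, and the 25S class as a covariate gave 1.51 and 0.47. With the actin covariate, LTI30 differed by -0.055 at 3 days, by -0.033 for lines minus empty vector and by -0.029 for non-induced lines minus empty vector, and with the 25S class the last was -0.048. The cause was not tested.

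Counts of called probe sets moved more. At 3 days, 0 became 4 without the filter, 1 with the stricter filter and 1 with trend and robust. At 6 days, 63 became 8 without the filter, 30 with the 25S class, 0 on high 25S arrays and 1 to 55 with 1 line left out. Over both days, 390 became 88 without the filter, 61 with the 25S class, 2 with the actin covariate, 6 with days averaged and 1 to 379 with 1 line left out. For lines minus empty vector, 1 became 274 without the filter and 0 with the replicate block, the 25S class, the actin covariate or any 1 line left out. Without the filter, 297 were called for the empty vector, 215 for non-induced lines minus empty vector and 33 between lines, each 0 otherwise, except 11 between lines with the 25S class and 0 to 33 for non-induced lines with 1 line left out (33 without line 9). The 25S-high arrays hold no induced 3 day amiR-tor array, so only 6 day, empty-vector and non-induced comparisons could be run on them.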
